A study of Mus musculus with 2 samples.

Results

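The small cytosolic ribosomal subunit genes examined here were the 30 protein-coding mouse genes whose symbol is Rps followed by the letter a, or by a number with at most the letter a, l or x after it. They were chosen by symbol and annotated gene type, with earlier results of these data known, out of 18907 annotated genes with at least 1 read. Rps27a matched the symbol pattern and was set apart, because it encodes ubiquitin fused to a ribosomal protein. Rps4l matched as well and was left out, because the annotation gives it as a transcribed processed pseudogene. All 30 members had reads in both libraries, and all 30 passed the limit of 10 counts in total that a gene needed for the comparison of libraries. Total RNA came from cortex tissue of the left cerebral hemisphere, of B6NCrl mice aged 6 months, with no treatment or engineered allele in the labels. Long reads, each of which can cover a transcript from end to end, were made from 2 libraries, labelled biological replicate 1 and biological replicate 2 of a single group. Both tissue samples carry the same donor record, 1 label describes the tissue as male and another gives the sex as not collected. The labels do not say whether the tissue came from separate animals. Every p-value below sets the difference between these 2 libraries against counting noise alone, without a measure of the spread between libraries. Such a difference may be technical.

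The small subunit, 40S, binds the messenger RNA and holds the decoding centre, where codons are matched to transfer RNAs. It consists of 18S ribosomal RNA and the Rps proteins, which sit in its head, body and platform, and a cell needs each protein in like amount. The messenger RNAs of these proteins begin with a C in a run of pyrimidines, the 5′ terminal oligopyrimidine tract, through which mTOR and the RNA-binding protein Larp1 control their translation, also in neurons. Their genes are compact, often carry small nucleolar RNAs in their introns, and have left many processed pseudogenes in mammalian genomes.

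The tract could be seen in the reference sequence for some members. A RefSeq start entry (build GRCm38.p6) was matched by symbol for 23 of the 30 genes. In 6 of these 23 genes, or 26.1%, the annotated first base was a C followed by at least 4 further bases that were C or T, read on the strand of the gene only. The same held for 7 of 35 large subunit genes with an entry, or 20.0%, and for 3.12% of 8750 protein-coding genes that entered the comparison of libraries. A run of at least 8 bases of C or T between 10 bases before and 50 bases after the start was held by 15 of the 23 members, or 65.2%, against 23.3% of the same protein-coding genes. The 6 starts are shown because they carry the feature for which these messages are known. Each line has 10 bases before the annotated start and 20 bases from it, and the capitals mark the run of pyrimidines that begins at the first transcribed base.
Rps10, chr17:27635225-27635254, minus strand: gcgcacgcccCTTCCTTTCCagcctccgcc
Rps18, chr17:33955646-33955675, minus strand: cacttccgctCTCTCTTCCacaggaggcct
Rps6, chr4:86857348-86857377, minus strand: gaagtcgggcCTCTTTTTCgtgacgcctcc
Rps15a, chr7:118116128-118116157, minus strand: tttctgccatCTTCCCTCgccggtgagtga
Rps27, chr3:90213629-90213658, minus strand: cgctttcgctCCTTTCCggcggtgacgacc
Rps21, chr2:180257369-180257398, plus strand: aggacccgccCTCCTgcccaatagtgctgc
The run was longest in Rps10, at 10 bases, and shortest in Rps21, at 5 bases. A RefSeq start that lies a few bases from the start used in cortex would hide a tract, so a gene without a match here is not shown to lack it.

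The libraries held 1306424 counted reads in replicate 1 and 1304133 in replicate 2, so that 1 read stood for 0.765 and 0.767 CPM (reads scaled to a total of 1000000 reads per library). Defining markers of cortical cell types were present: summed levels were 887 ± 152 CPM for 4 excitatory neuron genes, 258 ± 37.7 CPM for 3 inhibitory neuron genes, 2690 ± 100.3 CPM for 5 astrocyte genes and 3989 ± 221 CPM for 4 oligodendrocyte genes (mean ± SD, n = 2). Microglial and endothelial markers summed to 389 ± 19.4 and 179 ± 20.8 CPM. Red blood cell markers summed to 19.5 ± 14.6 CPM, with Alas2 at 0, and choroid plexus markers to 48.3 ± 14.03 CPM. In bulk tissue, fewer cells of a type and less RNA per cell cannot be told apart.

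The 30 genes together took 24035 reads in replicate 1 and 26652 reads in replicate 2, which were 1.84% and 2.04% of all reads. Their sum was 19417 ± 1442 CPM (SD, n = 2). Each long read was counted once whatever its length, so levels were compared between genes as CPM, without division by length. Whether copying or loading favoured short molecules was not tested. Across the members, the mean level correlated weakly with the coding length of the leading transcript, which ran from 168 bases in Rps29 to 885 bases in Rpsa (Spearman's rho 0.23 over 30 genes of the same 2 libraries, given as a description). The median member stood at 684 CPM, and the median of the 11838 genes tested at 23.4 CPM.

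The highest member was Rps15, a protein of the head whose tail reaches the decoding centre. Replicate 1 held 1373 of its reads and replicate 2 held 1556, which came to 1051 and 1193 CPM, a mean of 1122 ± 101 CPM and rank 80 among all annotated genes. Rps6, the substrate of the S6 kinases, had 1332 and 1529 reads, or 1020 and 1172 CPM. Rps14, a platform protein, had 1211 and 1552 reads, or 927 and 1190 CPM. The values of these 3 genes overlapped between the libraries, so their order was not beyond the spread. Rps3, at the entry of the messenger RNA channel, followed with 949 and 1012 CPM. Rps19, a head protein and the gene most often mutated in Diamond-Blackfan anaemia, had 917 and 1036 CPM.

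In the order of levels, an upper range ran from Rps15 down to Rpsa. Its 22 members lay between 559 and 1122 CPM, and in 16 of the 21 pairs of neighbours in this order the values of the libraries overlapped. Rpsa, also known as the laminin receptor precursor, closed this range with 737 and 723 reads, or 564 and 554 CPM. The next member, Rps18, a head protein that contacts transfer RNA, had 447 and 468 reads, or 342 and 359 CPM, so that the libraries of the 2 genes did not overlap and the step between their means was 1.60-fold. From Rpsa down through this lower range to the lowest member, 4 of the 8 pairs of neighbours overlapped. Below Rps18 came Rps20, of the head, with 353 and 426 reads, or 298 ± 39.9 CPM.

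Among the lowest members were Rps12, Rps29, Rps24 and Rps27l. Rps12, a protein of the beak of the head, had 289 and 390 reads, or 221 and 299 CPM. This place in the order depends on where reads were put: with the reads on its near-identical copies, described further on, Rps12 would have 477 and 671 reads, 1.65-fold and 1.72-fold more, against 481 and 507 for Rps18 and 353 and 426 for Rps20 counted in the same way. Rps29, a small zinc-binding protein of the head, had 265 and 287 reads, or 203 and 220 CPM. The lower value of Rps12 lay just above the higher value of Rps29. Rps24, another gene of Diamond-Blackfan anaemia, had 199 reads in each library, or 152 and 153 CPM, below all values of Rps29. With the reads on its near copies, Rps24 would have 259 and 271 reads, which overlap the 265 and 287 of Rps29. Rps27l, a paralogue of Rps27 that is induced by p53, had 64 and 65 reads, or 49.0 and 49.8 CPM. It was the lowest member, 3.09-fold below Rps24 and 22.7-fold below Rps15, whereas the other 29 members spanned 7.36-fold. These folds leave out the reads on near copies.

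Rps27 and Rps27l encode proteins of equal length and 252 coding bases. Their coding sequences were the same at 192 positions, or 76.2%, and differed at 60. Rps27 had 798 and 987 reads, or 611 and 757 CPM, and its 2 libraries lay far above those of Rps27l. A further gene, Rps27rt, is annotated as protein-coding on the same coding sequence as Rps27, with 252 of 252 bases identical, but without introns. Rps27rt had 337 and 419 reads, and every read on it was a single exon. The counterpart of the X-linked Rps4x, Rps4l, which the annotation does not give as protein-coding, had 70 and 67 reads, against 875 and 1008 for Rps4x.

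**Figure D1:**
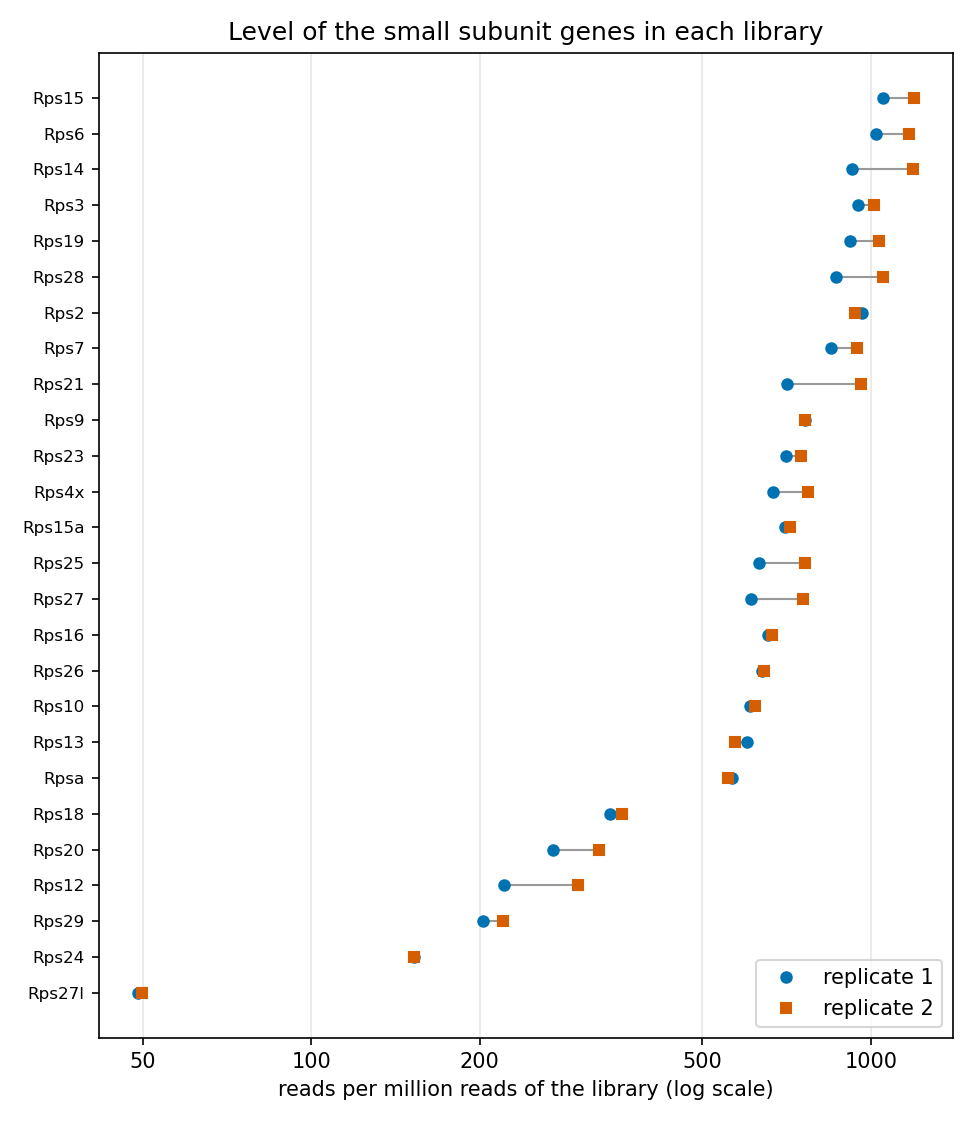
Level of 26 of the 30 small subunit genes in CPM on a log axis, with circles for replicate 1 and squares for replicate 2, joined by a line. The step between Rpsa at 559 CPM and Rps18 at 351 CPM marks the lower edge of the upper range, and Rps27l at 49.4 CPM stands alone.

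Proteins of the small subunit that fall outside the symbol rule were read as a check of this range. Rps3a1, a body protein, had 1224 and 1217 CPM and thus exceeded every member in mean level, at 1220 ± 4.99 CPM. Fau, which encodes a ubiquitin-like protein fused to Rps30, had 782 and 831 CPM. Rps27a had 750 and 747 CPM. Rack1, a signalling scaffold on the head of the subunit, had 169 and 173 CPM. The first 3 lay within or above the upper range of the members and Rack1 in the lower one. The 4 genes summed to 2947 ± 30.2 CPM, and no p-value of the 4 was under 0.05 in the exact binomial test between the libraries.

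Between the libraries, 0 of the 30 members were called at an adjusted p under 0.05 and a difference of at least 2-fold (two-sided exact binomial test of the reads, given the depth of each library, with Benjamini-Hochberg adjustment over 11838 genes). Over all genes tested, 7.05% were called by this rule, 1.61% as higher and 5.44% as lower in replicate 2. At an unadjusted p under 0.05 there were 14 members, against 22.8% of all genes. Without the size limit, 10 members passed the adjusted p, all of them higher in replicate 2, where 4.72% of all genes passed in that direction and 8.11% in the other. The members had more reads than most genes, and this test passes more easily with more reads. Of 3281 protein-coding genes in the members' range of CPM, members included, 326 passed the adjusted p as higher and 471 as lower. In this range 1232 genes had an unadjusted p under 0.05. The ratio was above 0 in 26 members and below 0 in Rps2, Rps9, Rps13 and Rpsa. The median log2 ratio of replicate 2 to replicate 1 was 0.12 for the members and 0.0025 for all genes. With edgeR's TMM factors, 23 ratios were above 0 and 8 members passed the adjusted p.

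The differences were small in size. Rps21, which sits at the body next to Rpsa, had 926 and 1255 reads, or 709 and 962 CPM, a log2 ratio of 0.44 with an adjusted p of 6.821e-11 in the exact binomial test. Rps12 had a log2 ratio of 0.43 with an adjusted p of 0.00161 in the exact test. For Rps14 the log2 ratio was 0.36 with an exact adjusted p of 2.549e-09. These 3 were the widest ratios among the members, each well under the 2-fold limit. Rps27 and Rps28, a head protein near the mRNA exit, followed at 0.31 and 0.28. The lowest ratio belonged to Rps13, a body protein with 786 and 745 reads, at -0.07. Rps9, a body protein of the small subunit core, had 997 and 995 reads and a ratio nearest to 0. The scatter of the members around their shared direction exceeded counting noise, with a chi-square of 3.72 per degree of freedom, and that over all genes was 7.06.

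Members were then set apart by position and by descent, as descriptions. Of the 13 members of the head, 5 passed the adjusted p and 13 had a ratio above 0. Of the 16 of the body and platform, 5 passed and 12 were above 0. Among the 15 proteins with bacterial homologues, 2 passed, Rps14 and Rps15, and 11 were above 0. Among the other 15, found in eukaryotes or in archaea and eukaryotes, 8 passed and 15 were above 0. All passing members were higher in replicate 2. Passing in that direction were 4.72% of all genes tested and 326 of 3281 protein-coding genes in the members' range of CPM. The median log2 ratios were 0.09 for the first and 0.18 for the second of these classes by descent, and the difference between them was not tested.

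**Figure D2:**
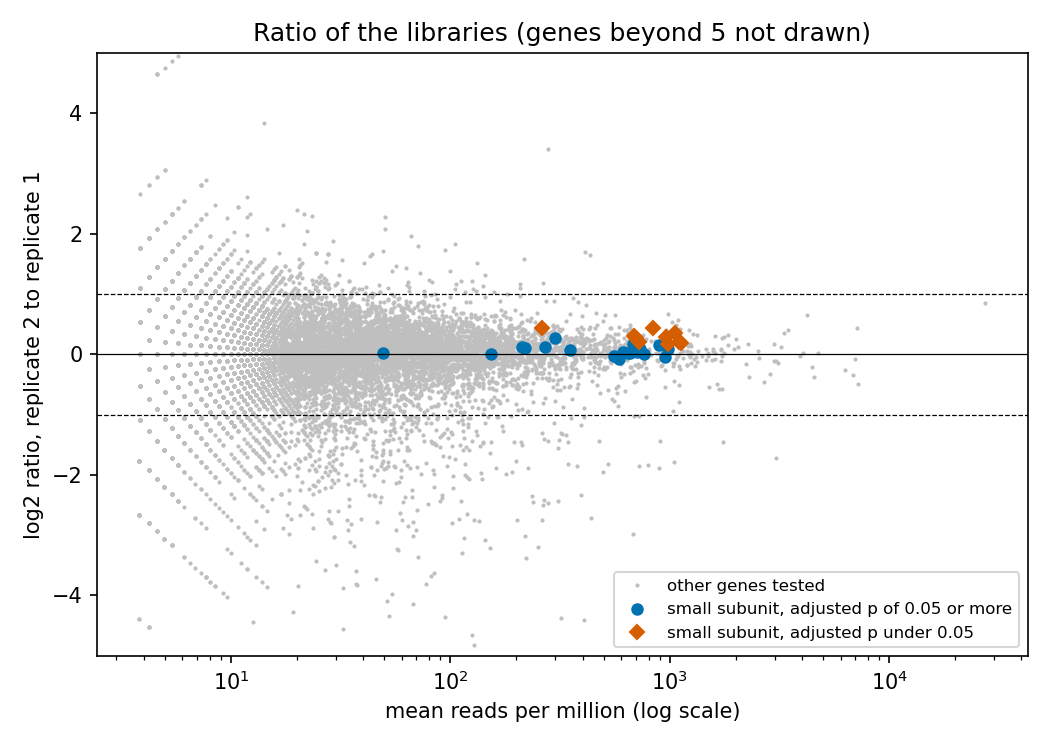
Log2 ratio of replicate 2 to replicate 1 against the mean level in CPM (log axis) for the 11838 genes tested in grey and the small subunit genes in colour, with diamonds for the 10 that passed the adjusted p. All small subunit genes lie between -0.07 and 0.44, inside the dashed lines at a 2-fold difference.

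Genes that work with the subunit were read from lists, beside the 1.61% of all genes that were called higher in replicate 2 and the 5.44% called lower. The 46 tested genes of the large subunit gave 0 called, with 13 at an unadjusted p under 0.05 in the exact binomial test, 9 past the adjusted p as higher in replicate 2 and 2 as lower. Their median log2 ratio was 0.04, and their sum was 31633 ± 1107 CPM. Of 42 tested genes for 40S assembly, 3 were called higher in replicate 2 and 1 lower. The higher ones were Dimt1, which methylates 18S RNA, with 20 and 49 reads, Abt1 with 19 and 48 reads, and Wdr43, of the early processome, with 12 and 34 reads. Fbl, the methyltransferase of box C/D small nucleolar RNAs, was lower with 27 and 8 reads. Of 9 tested S6 kinase genes, 0 were called, with 1 at an unadjusted p under 0.05. This was Rps6ka4, whose 58 and 29 reads gave a log2 ratio of -0.99, just short of the size limit. Of 14 tested genes for control of these messages and for 40S quality control, 0 were called higher and 2 lower. They were Rnf10, which ubiquitinates small subunit proteins, with 178 and 88 reads, and Eif4ebp2, the main brain form of the translation repressors under mTOR, with 28 and 8 reads. A further 3 genes of this list passed the adjusted p as higher in replicate 2 without reaching 2-fold: Cnbp, which binds these messages, with 734 and 885 reads, the poly(A)-binding protein gene Pabpc1 with 156 and 219, and the cap-binding protein gene Eif4e with 164 and 221. Larp1 had 20 reads in each library.

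Markers of cell types moved between the libraries as well. From replicate 1 to replicate 2, the summed level of the excitatory neuron genes went from 994 to 780 CPM, and 2 of the 4 were called lower. The other 2 had ratios above 0, and 1 of them passed the adjusted p as higher. Inhibitory neuron genes summed to 231 and 284 CPM. Red blood cell genes summed to 29.9 and 9.20 CPM, oligodendrocyte genes to 4146 and 3832 CPM, and astrocyte genes to 2619 and 2761 CPM. These sums hide opposite moves: among oligodendrocyte genes and among astrocyte genes, 1 passed the adjusted p as higher and 1 as lower. The part of the markers in the ratios of the small subunit genes was not tested.

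Most reads of the members covered an annotated transcript with all its introns. Reads on known transcripts made up 94.2% ± 0.238 of the members' reads (SD, n = 2), against 68.1% ± 3.53 over all protein-coding genes and 93.8% ± 0.195 over the large subunit. Spliced models held 99.9% of the members' reads, and unspliced, genomic models held 0.124% ± 0.0161, against 9.71% ± 2.07 over all protein-coding genes. By the deposited class labels, the rest of the members' reads fell on incomplete matches, which lack introns at an end of an annotated chain (3.67% ± 0.268). Others fell on chains that use an unannotated splice site (1.66%) and on new combinations of annotated sites (0.377%). The last class was not pure. In replicate 1 it held a chain of Rps6 with 16 reads, whose acceptor lay 3 bases from an annotated one. Among genes, the median known share was 97.01% in the members and 62.9% in 6426 protein-coding genes with at least 20 reads in each library. A known share of at least 90% was found in 24 of the 30 members, and in 13.6% of these protein-coding genes.

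Members under 90% differed in kind. In Rps4x, Rpsa and Rps21, known shares in single libraries ran from 83.3% in Rps21 to 90.5% in Rps4x, and most other reads were incomplete matches that lacked 5′ introns. Such models held 134 of 926 and 157 of 1255 reads of Rps21, and 79 of 875 and 144 of 1008 reads of Rps4x. In Rps24 the known share was 23.1% and 26.6%, and the missing reads had a single main structure.

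**Figure D3:**
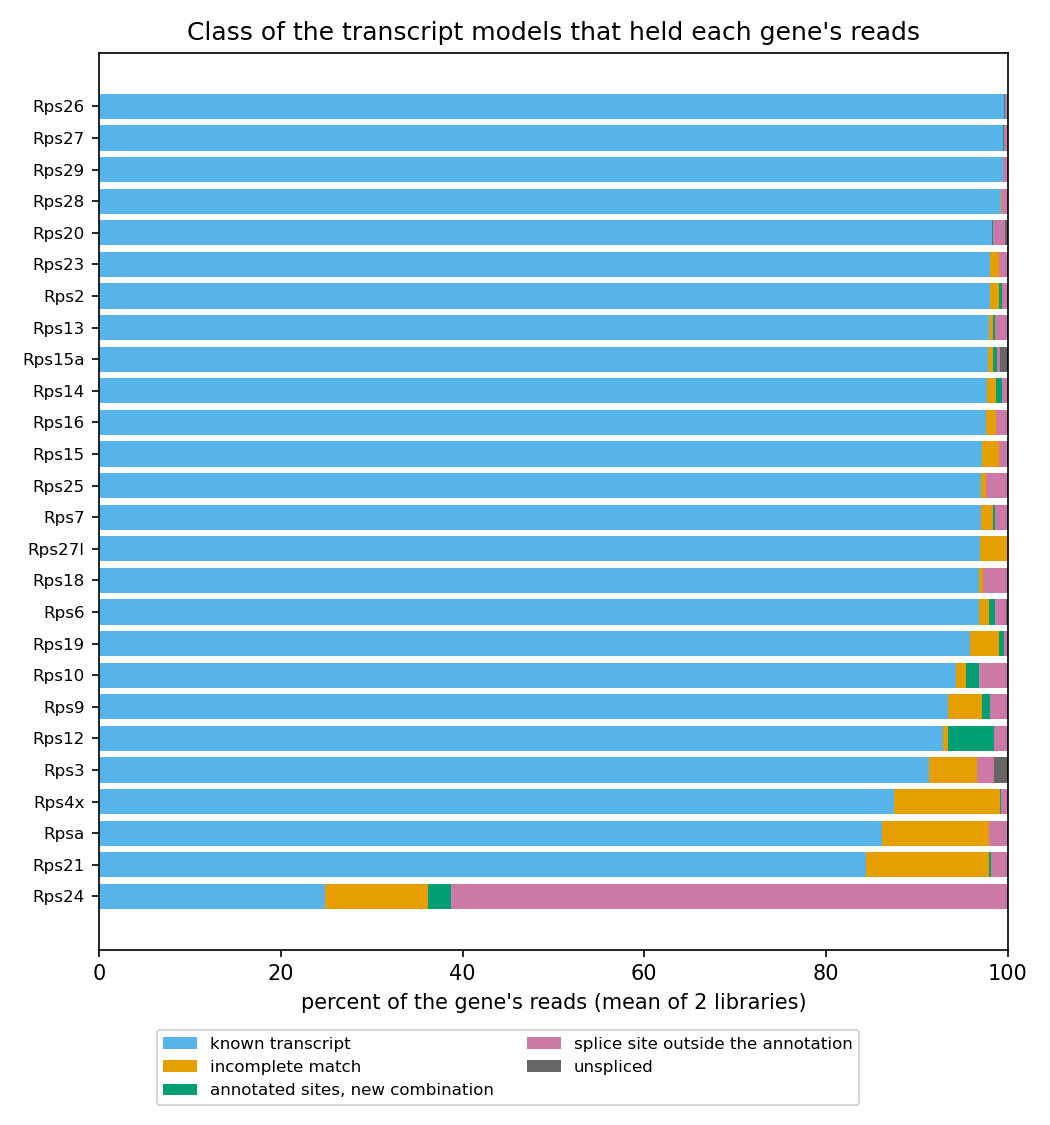
Share of the reads of 26 members by class of transcript model, as the mean of the 2 libraries. The 26 members drawn were mostly on known transcripts, except Rps24, which was mostly on models that use an unannotated splice site.

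Rps24 lies on chromosome 14, plus strand, at 24487125-24496959 in mm10. Between its exon 4, which holds the last long stretch of coding sequence, and its last exon the annotation knows very short alternative exons that change the end of the protein. The main model of the cortex reads joined exon 4, ending at 24493493, to an exon of 36 bases at chr14:24494052-24494087 and that exon to the last exon at 24495775. The 36-base exon starts at the acceptor of an annotated 18-base exon and ends 18 bases further on, at a donor outside GENCODE M21. All 4 pieces are shown with the end of exon 4, because the short exons set the stop codon. Capitals mark the first stop codon in frame.
End of exon 4, chr14:24493470-24493493: gccaatgttggtgctggcaaaaag
18-base exon, chr14:24494052-24494069: aaaTGAaatacctagcag
18-base extension, chr14:24494070-24494087: gtactgccattgggcacg
20-base exon, chr14:24495430-24495449: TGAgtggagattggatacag
Start of the last exon, chr14:24495775-24495798: ccaaaggagTAGatctgcggtgac
In the intron, both the 18-base exon and its extension were followed by GT, so the extension ends at a GT donor like the annotated exon does. The 390 coding bases through exon 4 left the reading frame complete. The 18-base exon, with or without its extension, added 1 codon before TGA. The 20-base exon began with TGA, and the last exon added 3 codons before TAG when it followed exon 4 directly. The extension therefore lay behind the stop codon, outside the coding sequence.

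The 36-base exon was in 138 of 199 Rps24 reads in replicate 1 and in 132 of 199 in replicate 2. The shares were 69.3% (95% Clopper-Pearson interval 62.4% to 75.7%) and 66.3% (59.3% to 72.9%), a mean of 67.8% ± 2.13 (SD, n = 2). Exon 4 was joined directly to the last exon in 19 and 26 reads, or 9.55% and 13.1%. The intron between them was kept whole in 25 and 29 reads, or 12.6% and 14.6%. The 18-base exon in its annotated form was in 0 reads of each library, and the 20-base exon as a whole exon was in 0 as well. Taking 3 reads as the limit, a count of 0 of 199 allows a share of up to 1.51%, and the Clopper-Pearson interval ends at 1.84%. Single splice sites of the 20-base exon were used in 5 and 2 reads: an exon began at its acceptor in 3 and 0 reads, and a longer exon ended at its donor in 2 reads of each library. In both libraries the exon outside the annotation was far above every annotated end. The remaining 12 and 10 reads had other structures or did not reach the last exon. Intervals and limits cover counting error only. Rps24 was picked for this close view after its values had been seen.

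**Figure D4:**
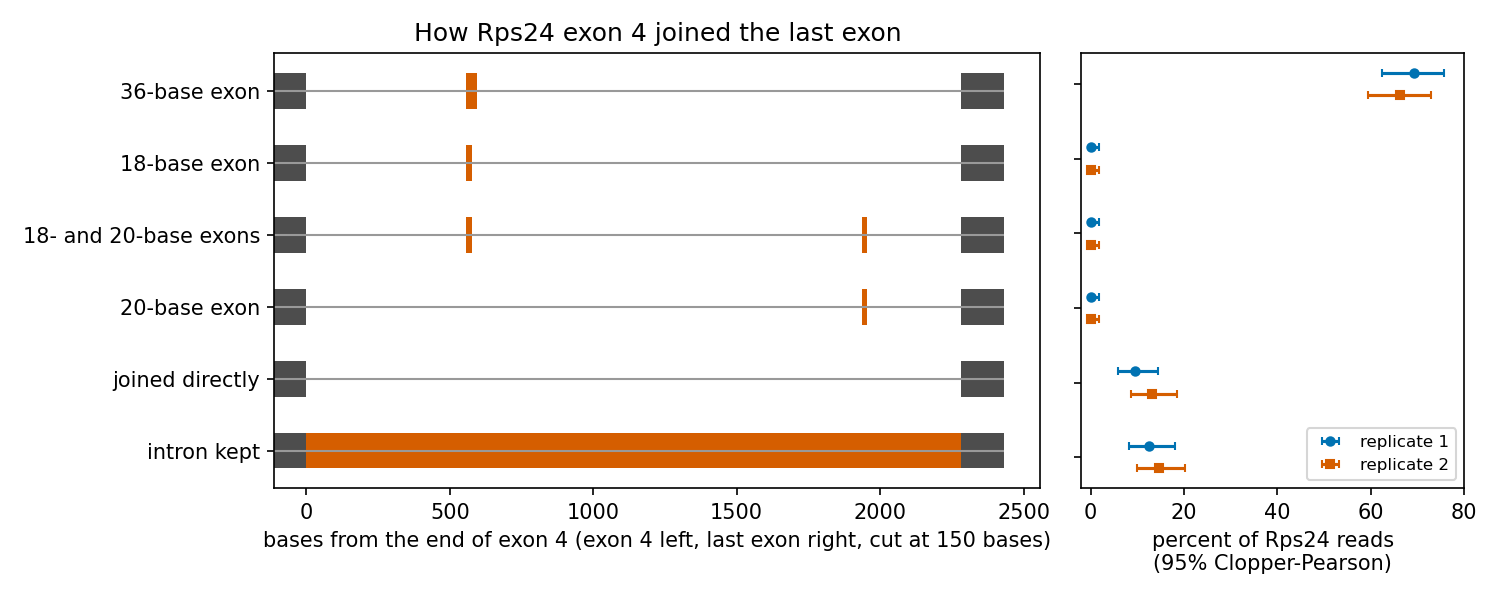
Left, structures between Rps24 exon 4 and the last exon, in bases from the end of exon 4, with alternative exons or kept intron in orange. Right, percent of Rps24 reads with each structure in each library with 95% Clopper-Pearson intervals, where the 36-base exon holds 69.3% and 66.3% and the annotated short exons, counted as whole exons, 0.

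A processed pseudogene is an intronless copy of a messenger RNA, and for a copy that is nearly identical the split of reads between gene and copy depends on the aligner, which is not given in the sources used here. Searched with the leading transcript of each member, 23 of the 30 members had an annotated near copy with at least 97% identity over at least 200 bases, and in 22 of them a copy had reads. In all, 58 of 118 copies had reads, 3103 in replicate 1 and 3520 in replicate 2. These were 11.4% and 11.7% of the reads on members and copies together.

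Copies of Rps12 took 40.6% of the summed reads as a mean of the libraries, those of Rps23 34.1%, those of Rps27 31.3%, those of Rps13 27.7% and those of Rps24 24.9%. Among the copies with most reads were Rps23-ps1 with 480 and 503 reads, identical over 425 bases, Rps2-ps10 with 357 and 312 reads and Rps13-ps2 with 285 and 298 reads. Nearly all reads on these copies were single-exon reads, which have no intron to show where they arose. The levels of these members are therefore uncertain. Near copies with reads were found for neither Rps20, Rps29 nor Rps27l in the lower range, nor for Rps3, Rps14 and Rps21 in the upper one.

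**Figure D5:**
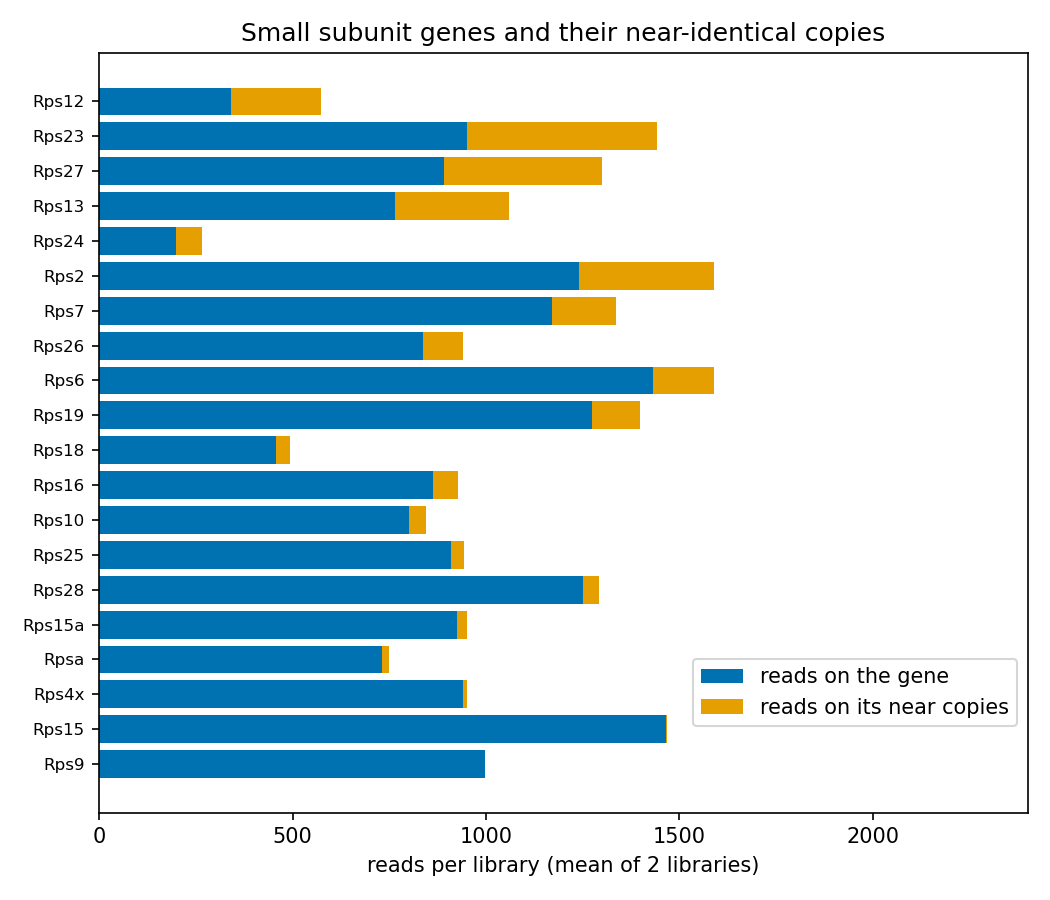
Reads placed on each member (blue) and on its near-identical copies (orange), as the mean of the 2 libraries, for 20 members with reads on a copy. The orange part is largest as a share of the bar for Rps12, at 40.6%, and nearly absent for Rps15 and Rps9.

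Most members used a single known transcript. The leading transcript held a median of 97.8% of the known-transcript reads of a member, the same as the 97.8% of 3793 protein-coding genes with enough reads. A second transcript with at least 10% of these reads in both libraries was found in 7 of 30 members, or 23.3%, against 22.6% of the protein-coding genes. In Rps28 the leading Rps28-205 held 74.8% and 75.9%, and Rps28-201 held 24.96% and 23.8%. These transcripts differ by 4 bases at a donor in intron 3 and share their coding sequence. In Rps2, a protein at the entry of the mRNA channel, Rps2-208 held 78.3% and 80.7%, and Rps2-201, which keeps a first intron of 140 bases, held 21.2% and 18.9%. In Rps9 the transcript Rps9-204, which keeps a first intron of 262 bases, held 16.3% and 19.4%. Rps14-203 held 10.6% and 12.2% of Rps14, and Rps15a-207 held 14.9% and 13.0% of Rps15a.

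These second transcripts have the coding sequence of the leading one in 5 genes, Rps2, Rps9, Rps14, Rps15a and Rps28. In Rps15 the second transcript, Rps15-201 with 16.1% and 13.6%, starts after the first donor of the leading transcript and its annotated coding sequence differs. Rps24 had 3 known transcripts above 10%, of which 2 keep introns, on only 46 and 53 known reads. Across all members, 16 alternative known transcripts with a mean share of at least 2% changed 18 introns of the leading transcript, in 14 genes. Of these 18 changes, 11 were in the first intron, and Rps24 had 4 of the other 7. Rps6, Rps7, Rps20, Rps26 and Rpsa had their alternative in the first intron as well, at mean shares of 2.25% to 6.76%. Between the libraries, 0 members passed an adjusted p under 0.05 for the share of the leading transcript, by Fisher's exact test over 3956 genes (1.11% of all genes passed, and 2 members, Rps19 and Rps21, had an unadjusted p under 0.05).

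Reads on unspliced models, or on transcripts that the annotation classes as retained introns, were few. These classes leave out protein-coding transcripts that keep an intron, such as Rps2-201 and Rps9-204. Rps26-202, a retained-intron transcript, had 37 and 42 reads, against 794 in each library for the leading transcript of Rps26, a protein at the mRNA exit channel. Rps24 had 25 and 29 reads on retained-intron or unspliced models, the highest share of the members in these classes at 13.6%. Rps3 had 16 and 22 unspliced reads, and Rps4x had 8 and 19 reads on Rps4x-203.

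The annotated internal exons measured here lay outside 10% to 90% inclusion, as did most exons of protein-coding genes. In the 30 members, 108 exons had at least 20 informative reads in each library, and 0 of them were included in 10% to 90% of the reads in both. Among protein-coding genes 837 of 32687 exons, or 2.56%, lay in that range. The 36-base exon of Rps24 is not among the 108, because it ends outside the annotation. Both inclusion and skipping were seen for 24 exons. The one included least often with reads in both libraries was an exon of 174 bases in Rps9, in 2 of 996 and 5 of 994 reads. An exon of 81 bases in Rps19, at chr7:24886107-24886187, was included in 20 and 17 reads, or 1.67% and 1.26%. The other exons with skipping reads were included in over 99% of reads, except an exon of Rps27l seen in 1 read. Between the libraries, 0 of these exons passed the adjusted p by Fisher's exact test and 0 had an unadjusted p under 0.05, where 0.176% of the exons of all genes passed.

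Some intron chains outside the annotation were found in both libraries, and most were found in only 1. Of 256 such chains in the members, 77 were found in both, in 26 genes. These 77 held 396 of 498 reads in replicate 1 and 427 of 535 in replicate 2, and 1 chain of Rps24 alone held 118 and 108. No share over all genes is given beside these counts. With at least 5 reads in each library there were 17 chains, and 15 of these had 1 intron outside the annotation, with a changed donor in 9 and a changed acceptor in 6. In 12 of the 15 the new site lay within 4 bases of an annotated one. Behind Rps24, the chains with most reads were in Rps3 and Rps10. In Rps3 a donor 4 bases downstream of the annotated one was in 14 and 22 reads. In Rps10 the donor of intron 2 lay 2 bases downstream in 17 reads of each library, and in Rps18 a donor 2 bases downstream in 10 and 11 reads. A shift in the alignment at sites this close was not tested. Farther from annotated sites was an acceptor of Rps21, 21 bases upstream in 8 and 12 reads. So was a donor of Rpsa in 5 and 6 reads. The Rpsa donor was joined to the acceptor of intron 1 and lay downstream of that intron's annotated donor. The nearest annotated donor was that of the next intron, and the new donor lay 314 bases upstream of it. Rps12 had a chain of annotated sites in a new combination in 14 and 15 reads, or 4.84% and 3.85%.

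The rule did not use genomic position. Small nucleolar RNA genes lay inside introns of 9 of the 30 genes, or 30%, against 1.91% of the 11125 protein-coding genes tested. Of the 17 such genes, Rps12 and Rpsa hosted 3 each, and Rps3 hosted Snord15a and Snord15b. Hosts were found in both ranges of level, with Rps3 at 981 CPM and Rps12 at 260 CPM. Chromosome 7 held 9 of the 30 genes, against 7.17% of the protein-coding genes tested, chromosome 17 held 4, against 4.75%, and the X chromosome held Rps4x alone.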

How the data were processed

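Long-read RNA sequencing was measured in 2 cortex libraries of 1 group. The authors deposited counts, whole reads per transcript model and library without normalization, and, per the file headers, other values (exon number and length of each model). Per the labels, positions are on mm10, and the deposited annotations hold GENCODE M21 features with models added by TALON. No aligner or program version is given in the sources used here.

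Each annotated gene's counts were added up and scaled to a total of 1000000 (CPM), from 1306424 and 1304133. From 10 counts upward over both libraries, a gene was compared by an exact two-sided binomial test (Python 3.11.15, scipy 1.17.1) with Benjamini-Hochberg adjustment, and it was called where the adjusted p was under 0.05 and the log2 ratio, computed with 0.5 counts added, was 1 or more in size. Shares have 95% Clopper-Pearson intervals, and a count of 0 was given a limit of 3 counts. With 1 group, edgeR 4.0.16 and DESeq2 1.42.0 gave only normalization factors. Leading transcripts (at least 20 known-transcript reads in each library) and exons (at least 20 informative reads) were compared by Fisher's exact test. Near copies were searched with blastn 2.17.0 in GENCODE M21 transcripts, starts were read from RefSeq, and other sequences from GENCODE M21. The tests were checked on simulated counts that held counting noise alone. Their false calls under the wider spread of these libraries were not checked. Results of 4 members taken singly are not reported here, though their reads stay in sums, counts and tests. Named genes are the 5 highest and lowest members, members with a second major transcript, the paralogues, those with most retained introns, and called genes of the lists. Members and lists were chosen with earlier results of these data known. Alternatives changed normalization, filters, models counted, the members' near copies and the replicates.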

Additional observations from a re-analysis of the deposited data

How the results depend on the processing

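With 2 libraries of 1 group, the spread rests on 1 difference, and no outlier test was possible. No paired analysis was possible because the labels give a single group. The summed level of 19417 CPM became 21763 CPM over annotated nuclear genes only, 20930 CPM with the pseudogenes named after members, 22364 CPM with Rps3a1, Rps27a, Fau and Rack1, and 21954 CPM with all near copies, the last chosen after seeing the data. It ran from 18398 to 20437 CPM with a replicate left out, and stayed within its SD on known transcripts only and without genomic models. The sum of the 4 genes outside the rule became 2790 CPM on known transcripts only, and 2926 to 2968 CPM with a replicate left out. The known share became 97.1% as the median over members in each library, and 94.0% to 94.3% with a replicate left out. The count of called members stayed at 0 under every normalization, filter, added count, choice of models and addition of copies that was run, and became 10 only without the size limit. Members past the adjusted p alone were 8 with TMM factors, 9 on known transcripts or with pseudogenes added, and 12 with near copies added. Rps19 lost its adjusted p with TMM factors (0.0646), with pseudogenes (0.0733) and with near copies (0.0766), and Rps4x with TMM factors (0.0532) and on known transcripts (0.384). The count of members whose leading transcript differed stayed at 0 with a minimum of 10 or 50 reads and became 2, Rps4x among them, when incomplete matches were counted, a setting under which 21.1% of all genes differed. The count of exons at 10% to 90% inclusion stayed at 0 in all 5 alternatives. The share of Rps24 reads with the 36-base exon was 65.7% without incomplete matches, an alternative chosen after seeing the data. The cause of these changes was not tested. A depth of 199 reads per library limits Rps24, and 64 reads Rps27l.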
